A study of Mus musculus with 65 samples.

Results

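Scavenger receptors and C-type lectins are surface receptors with which macrophages and dendritic cells bind microbes, modified lipoproteins and dying cells. The 10 genes described here were taken by symbol from the gene count table, where each had 1 row among 23755. They are the scavenger receptor genes Marco, Msr1, Cd36 and Cd163, the mannose receptor gene Mrc1, and the C-type lectin genes Clec4e (Mincle), Clec4d (MCL), Clec4n (Dectin-2), Clec7a (Dectin-1) and Clec5a (MDL-1). The choice was by symbol, with earlier results of these data known. Their levels were read in all 65 polyA RNA sequencing libraries of the series, which fall into 19 groups.

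Of these libraries, 47 came from bone marrow derived dendritic cells (BMDCs) on a C57BL/6 background. A set of 12 unstimulated BMDC libraries held wild-type, Suv39h1KO, IfnarKO and doubly deficient Suv39h1KO IfnarKO cells, with 3 libraries each. Suv39h1 encodes a histone H3 lysine methyltransferase of heterochromatin, and Ifnar1 a chain of the type I interferon receptor. A second set of 35 BMDC libraries was taken before (0 h) and 2 h and 4 h after lipopolysaccharide (LPS, 100 ng/mL), the ligand of TLR4. It held wild-type cells (6, 5 and 6 libraries at 0, 2 and 4 h) and MyD88KO and TrifKO cells (3 at each time), labelled as lacking 1 or the other adaptor of TLR4. The remaining 18 libraries came from RAW264.7 cells, a mouse macrophage line labelled BALB/c, that carried gRNA_Ctrl, gRNA_1 or gRNA_2, at 0 h and 2 h with 3 libraries each. The labels do not give the targets of these guides, call the 0 h RAW264.7 libraries LPS with time 0, and state the LPS dose only for BMDCs. The labels give all RAW264.7 libraries and the unstimulated set wild-type Myd88 and Trif, and the stimulated BMDC set wild-type Suv39h1 and Ifnar. BMDC cultures were made by growing bone marrow and can hold macrophages beside dendritic cells. The RAW264.7 titles name dendritic cells, but their source and cell type labels name RAW264.7 macrophages. It is not given whether libraries of a group came from separate animals or cultures, so p-values measure the spread between these libraries, which may be technical in part.

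The C-type lectins among the members pass signals through tyrosine-based motifs. Clec7a carries its own, Clec4e and Clec4n use the Fc receptor gamma chain, and Clec5a uses DAP12 and DAP10. Syk kinase and the adaptor CARD9 then lead to NF-kB. The scavenger receptors and Mrc1 act mainly in uptake: Marco and Msr1 bind bacteria and modified lipoproteins, Cd36 binds oxidised lipoproteins and takes up long-chain fatty acids, Cd163 takes up haemoglobin bound to haptoglobin, and Mrc1 takes up mannosylated glycoproteins. Marco, Clec4e and Clec4d are known as genes that rise on Toll-like receptor signals in macrophages, and Cd163 and Mrc1 as genes of resident or alternatively activated macrophages.

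Depth was 36.9 M to 95.3 M gene counts per library, with a median of 54.7 M. All levels below are CPM, the counts of a gene relative to the library total, after scaling of each library total by the trimmed mean of M values (TMM) within its experiment. Suv39h1 was near 0 in the libraries labelled Suv39h1KO. Ifnar1, Myd88 and Ticam1 (which encodes TRIF) kept transcripts in the cells labelled as lacking them, and the deleted parts are not given in the sources used here. Ticam1 was 29.8 to 31.7 CPM in all 3 libraries labelled TrifKO at 0 h, against 27.1 to 35.6 in wild-type cells. At 2 h and 4 h it was 2.94 and 2.46 CPM in cohort 3 but 37.3 to 50.3 in cohorts 1 and 2. The libraries labelled TrifKO therefore do not agree among themselves in the targeted gene. Results called in them in the main fit are given also without cohort 3. Xist was at most 0.0378 CPM in 5 of these 9 libraries and at least 1010 CPM in the other 4, with both kinds in every cohort. Of 12 conventional dendritic cell markers, all 12 were above 1 CPM in wild-type BMDCs at 0 h, with a sum of 4864 to 5863 CPM. In RAW264.7 cells with gRNA_Ctrl 4 of the 12 were above 1 CPM, with a sum of 29.9 to 43.6 CPM, and Flt3 and H2-Ab1 were at 0. Of 12 macrophage markers, 11 were above 1 CPM in BMDCs at 0 h (sum 6071 to 11290 CPM) and 7 in RAW264.7 cells (sum 6225 to 6526 CPM, with C1qa, C1qc and Timd4 at 0).

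Of the genes, 6 lie on mouse chromosome 6 (GENCODE M21, build GRCm38, the same assembly as the mm10 of the authors' files). Clec4n (chr6:123229843-123247021), Clec4d (chr6:123262111-123275265) and Clec4e (chr6:123281789-123289870) are neighbours, with gaps of 15.1 kb and 6.52 kb between them. Clec4n and Clec4d are on the plus strand and Clec4e is on the minus strand. Cd163 (chr6:124304656-124330527, plus strand), Clec7a (chr6:129461591-129472779, minus strand) and Clec5a (chr6:40574894-40585821, minus strand) lie farther away on the same chromosome. Marco (chr1:120474538-120505024), Msr1 (chr8:39581685-39642673) and Cd36 (chr5:17781690-17888801) are on minus strands, and Mrc1 (chr2:14229392-14332057) is on the plus strand. Only Mrc1 overlaps another annotated gene, the microRNA gene Mir511 on the same strand.

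Before stimulation BMDCs carried mostly the Syk-coupled lectins Clec4n and Clec7a and the lipid receptor Cd36, and hardly any Cd163. Compared per kilobase of annotated exon, Clec4n led in wild-type cells at 0 h with 903 ± 170 CPM per kb (SD, n = 6), followed by Clec7a with 279.7 ± 28.3. Cd36 (147 ± 69.0) and Clec4d (90.6 ± 26.0) came next, and their spreads overlapped. Msr1 (27.7 ± 10.3), Clec4e (21.3 ± 11.04), Marco (14.5 ± 10.5), Mrc1 (10.9 ± 2.95) and Clec5a (9.91 ± 2.57) formed a run in which no neighbours stood apart beyond their spread. Cd163 was last at 0.109 ± 0.0303 CPM per kb. In the separate unstimulated set the first 5 places were the same, and the order below them differed.

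The plot of level per length shows that RAW264.7 cells had another make-up of these receptors. In gRNA_Ctrl cells at 0 h Clec4d (133.6 ± 5.73 CPM per kb, n = 3) and Clec5a (103 ± 2.17) led, while Clec4n stood at 2.42 ± 0.703 and Clec7a at 10.6 ± 1.49. Clec4n had 2.38 to 11.03 CPM in the 18 RAW264.7 libraries and 892 to 2888 CPM in the 35 stimulated-set BMDC libraries. Clec5a went the other way, with 389 to 577 CPM in RAW264.7 cells and 25.4 to 174 in those BMDCs. Marco was at 0 counts in 17 of 18 RAW264.7 libraries and had 2 counts in the other one, and Cd163 had at most 4 counts in any of them, so neither was tested there. Cell type, strain and experiment differ together between these sets and cannot be told apart, and the levels are given as a description without a test.

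**Figure D1:**
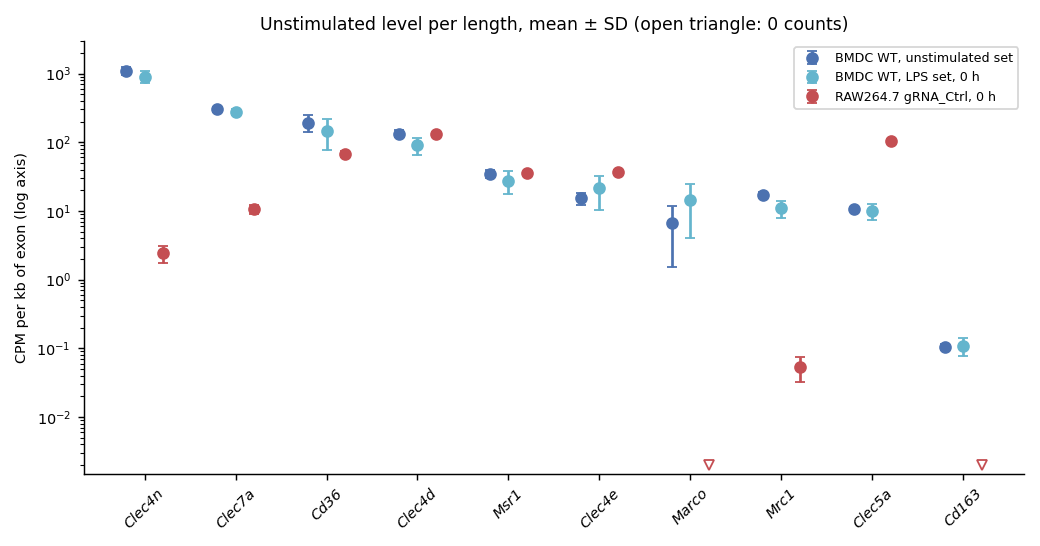
Mean CPM per kb of exon with SD on a log axis for the 10 genes in wild-type BMDCs of the unstimulated set (n = 3), wild-type BMDCs of the stimulated set at 0 h (n = 6) and RAW264.7 gRNA_Ctrl cells at 0 h (n = 3). Clec4n stood at 903 CPM per kb in BMDCs and 2.42 in RAW264.7 cells, while Clec5a stood at 9.91 and 103; open triangles at the lower edge mark genes with 0 counts.

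The first comparison asked how LPS changed these genes in wild-type BMDCs. Clec4e rose most, by more than 10 times, Clec5a and Clec4d rose together with it, and Marco was called at 4 h. Cd163 fell to near 0 and Clec7a fell to a lesser extent. With edgeR's quasi-likelihood test, 4 of the 10 genes passed upward and 2 downward at 2 h, where 45.9% of all 14475 tested genes passed in either direction. At 4 h it was again 4 upward and 2 downward, against 65.1% of all genes. The members' median log2 change was 0.56 at 2 h and 0.39 at 4 h, with medians of -0.05 and -0.07 over all genes. The 6 of 10 members called at each time thus stood above the share of all genes at 2 h and below it at 4 h, and the description that follows concerns the single genes. Scaling by total counts instead of TMM lowers every log2 change by 0.38 at 2 h and 0.65 at 4 h. Under it all these calls but that of Clec4n at 2 h stayed called in the same direction.

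Clec4e encodes Mincle, the receptor of mycobacterial cord factor and of the nuclear protein SAP130 from dying cells. At 0 h it ranged from 44.9 to 184 CPM in 6 wild-type libraries, with a median of 93.1. At 2 h the 5 libraries had 635, 712, 1134, 1406 and 1601 CPM, and at 4 h the 6 libraries ranged from 801 to 1822 with a median of 1403. Every stimulated library lay above every 0 h library. The log2 change was 3.38 ± 0.37 (SE, edgeR adjusted p = 1.4e-08) at 2 h and 3.67 ± 0.37 (adjusted p = 7.3e-10) at 4 h.

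Clec4d, the neighbour of Clec4e, encodes a lectin that pairs with Mincle. It ranged from 93.6 to 203 CPM at 0 h with a median of 142, stood at 194, 202, 364, 382 and 415 CPM at 2 h, and ranged from 241 to 454 at 4 h with a median of 343. At 2 h the lowest libraries reached into the 0 h range, and at 4 h none did. Its log2 change was 1.105 ± 0.27 at 2 h and 1.23 ± 0.26 at 4 h (edgeR adjusted p = 0.0011 and 0.00012). Clec4n, the third gene of the cluster and a receptor of fungal mannans, had 1542, 1627, 1963, 2131 and 2888 CPM at 2 h against 1058 to 1733 at 0 h. It rose by 0.66 ± 0.22 at 2 h (adjusted p = 0.013), and its log2 value at 4 h was 0.19 ± 0.21 (adjusted p = 0.44). This 2 h call was lost without the low-set cohort 1 library at 2 h (adjusted p = 0.062) and under total-count scaling (0.30, adjusted p = 0.27), where the 4 h value turned to -0.43.

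Clec5a encodes a receptor of myeloid cells that binds flaviviruses and neutrophil extracellular traps. It ranged from 25.4 to 51.6 CPM at 0 h with a median of 35.7, stood at 86.2, 98.1, 116, 119 and 146 CPM at 2 h, and ranged from 56.7 to 132 at 4 h with a median of 101. The stimulated libraries did not overlap the 0 h libraries. The log2 change was 1.57 ± 0.23 at 2 h and 1.35 ± 0.22 at 4 h (edgeR adjusted p = 2.2e-06 and 4.9e-06).

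Marco encodes a class A scavenger receptor that binds Gram-positive and Gram-negative bacteria. It varied widely already at 0 h, from 2.42 to 61.6 CPM with a median of 26.7. At 2 h the libraries had 23.7, 41.8, 55.6, 108 and 150 CPM, which overlapped the 0 h range, and the log2 value was 1.44 ± 0.77 (adjusted p = 0.13). At 4 h they ranged from 149 to 307 CPM with a median of 161, above every 0 h library, and Marco had risen by 2.82 ± 0.78 (adjusted p = 0.0023). Relative to its level Marco spread more at 0 h than at 4 h, and in CPM less.

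Cd163 and Clec7a moved downward. Cd163 was low throughout, with 23 to 56 counts per library at 0 h, or 0.367 to 0.754 CPM. At 2 h it had 0.0807, 0.153, 0.239, 0.259 and 0.279 CPM, and at 4 h 0 to 7 counts per library (0 to 0.152 CPM), so that neither time overlapped 0 h. It fell by 1.52 ± 0.55 at 2 h and by 2.93 ± 0.58 at 4 h on the log2 scale (edgeR adjusted p = 0.022 and 6.4e-05). The 2 h call was lost without the high-set cohort 1 library at 2 h (adjusted p = 0.063). Clec7a, the receptor of fungal beta-glucan, went from 630.1 to 824 CPM at 0 h to 450, 535, 541, 549 and 578 CPM at 2 h, without overlap. At 4 h it ranged from 330 to 698 CPM, with 1 library inside the 0 h range. Its log2 change was -0.48 ± 0.16 and -0.59 ± 0.15 (adjusted p = 0.013 and 0.00095).

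Msr1, Cd36 and Mrc1 did not pass at either time. Their 4 h values were 0.56 ± 0.35 (adjusted p = 0.16), 0.16 ± 0.39 (0.73) and 0.21 ± 0.33 (0.58), and under total-count scaling they turned to -0.08, -0.49 and -0.45, while at 2 h Cd36 and Mrc1 turned to -0.18 and -0.12. These genes differed more between libraries of 1 group than between times: Cd36 ranged from 271 to 904 CPM at 0 h and from 285 to 931 at 4 h, Msr1 from 101 to 276 and from 160 to 388, and Mrc1 from 39.7 to 91.5 and from 33.8 to 116.

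Between 2 h and 4 h edgeR called none of the 10 genes, against 35.8% of all genes. Cd163 and Clec4n had an unadjusted p under 0.05, and DESeq2 called 1 of the 10, Cd163. Log2 values from 2 h to 4 h were 1.39 ± 0.79 for Marco, -1.41 ± 0.64 for Cd163 and -0.48 ± 0.22 for Clec4n. Same-numbered libraries had residual correlations of 0.315 to 0.663 in the high wild-type set and 0.0240 to 0.580 in the low set. Both sets are described in the next paragraph. With a replicate block of library set and cohort, edgeR called 4 members between 2 h and 4 h: Marco higher (1.63 ± 0.49, adjusted p = 0.0068), and Cd163 (-1.64 ± 0.54, adjusted p = 0.014), Clec4n (-0.61 ± 0.15, adjusted p = 0.0014) and Clec5a (-0.34 ± 0.12, adjusted p = 0.022) lower. That blocked fit called 7156 of all 14475 tested genes between these times. Against 0 h this block also called Marco at 2 h (1.88 ± 0.48, adjusted p = 0.0015) and Msr1 at 2 h and 4 h (0.48 ± 0.18 and 0.57 ± 0.17, adjusted p = 0.022 and 0.0036). Of all genes it called 8056 at 2 h and 10532 at 4 h.

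The wild-type libraries fall into 2 ranges of library numbers in their titles, a low set shared with all MyD88KO libraries and a high set shared with all TrifKO libraries. Within these sets the wild-type change of Clec4e at 4 h was 3.89 ± 0.52 in the low and 3.50 ± 0.53 in the high set, and that of Clec5a was 1.49 ± 0.37 and 1.24 ± 0.29, all called. Clec4d gave 1.29 and 1.20 and Cd163 -3.11 and -2.74, also called in both. Marco was called in the low set (3.14 ± 1.24, adjusted p = 0.038) and missed the threshold in the high set (2.66 ± 1.14, adjusted p = 0.052), and Clec7a likewise (-0.79, adjusted p = 0.0036, and -0.41, adjusted p = 0.078). At 2 h Clec4e, Clec4d and Clec5a were called in both sets, Clec4n in the low set, and Cd163 and Clec7a in neither. Markers of granulocytes, which also express Clec4e and Clec4d, summed to 208 to 567.7 CPM at 0 h, 408 to 682 at 2 h and 256 to 783 at 4 h in wild-type cells, with none of the 10 measured markers rising and 1 falling at each time. Conventional dendritic cell markers went from a sum of 4864 to 5863 CPM at 0 h to 8089 to 12138 at 4 h, with 6 of 12 rising and 3 falling. Of 12 macrophage markers 4 rose and 2 fell at 4 h, with a sum of 6251 to 12349 CPM against 6071 to 11290 at 0 h. Of 5 plasmacytoid dendritic cell markers 3 rose and 1 fell, from a sum of 135 to 191 CPM to 524 to 939. The part of these markers in the changes of the members was not tested. In such bulk libraries more cells of a type and more RNA per cell cannot be told apart.

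**Figure D2:**
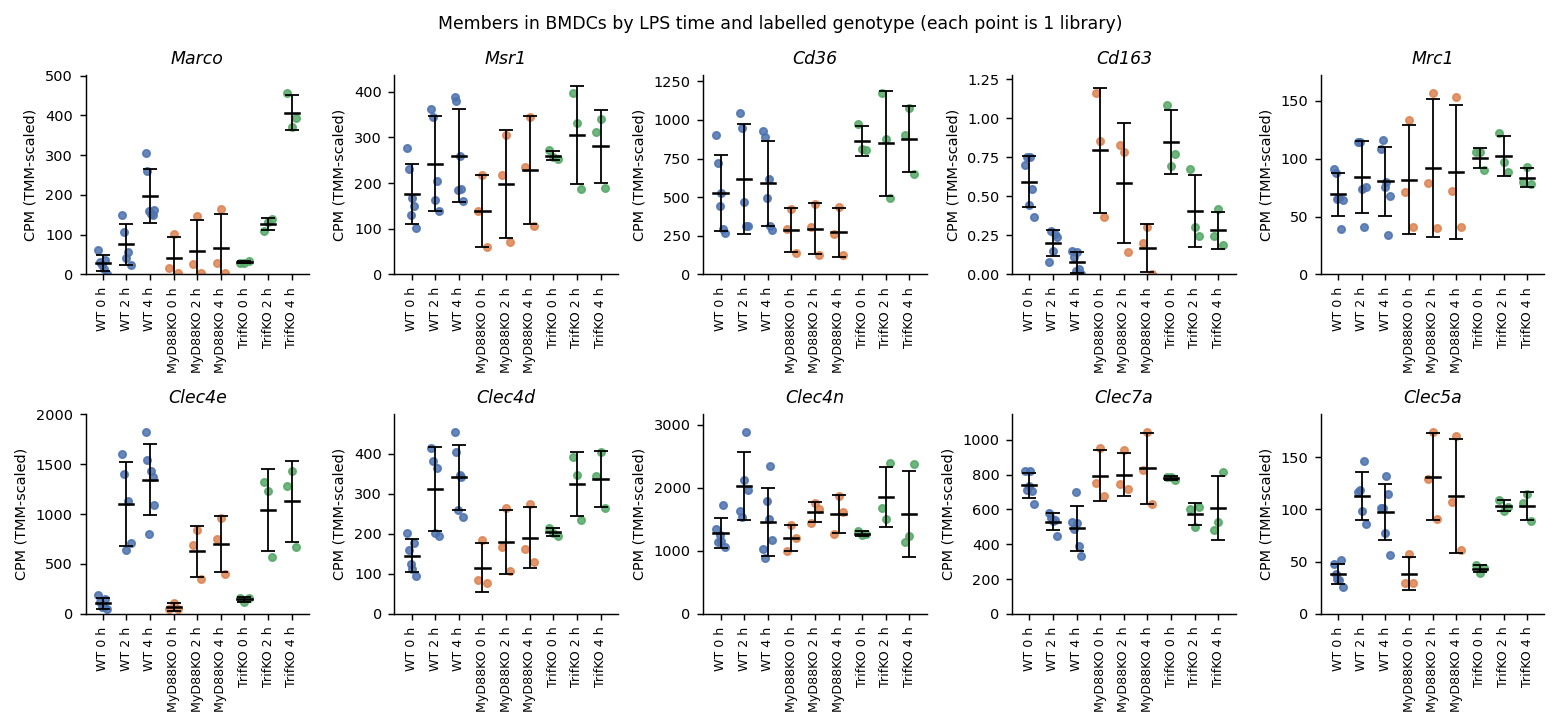
CPM of each gene in every stimulated-set BMDC library by labelled genotype and hours after LPS, with the mean and SD as black bars and linear axes that start at 0. In wild-type cells Clec4e lay between 44.9 and 184 CPM at 0 h and between 801 and 1822 at 4 h, and the 3 MyD88KO libraries spread widely for Marco at every time.

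The 250 bases before the RefSeq start sites (GRCm38.p6) are shown for the 4 genes called higher in wild-type BMDCs at 4 h. Capitals mark matches to GAGGAA (a PU.1-type core), TTGCNNAA (a C/EBP-type site) and TATAAA on either strand.
Clec4e (chr6:123289872-123290121, minus strand): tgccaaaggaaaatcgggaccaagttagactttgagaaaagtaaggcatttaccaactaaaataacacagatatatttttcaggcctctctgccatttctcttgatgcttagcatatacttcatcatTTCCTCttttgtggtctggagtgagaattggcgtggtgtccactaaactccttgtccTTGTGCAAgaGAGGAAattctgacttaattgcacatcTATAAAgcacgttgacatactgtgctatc
Clec4d (chr6:123261857-123262106, plus strand): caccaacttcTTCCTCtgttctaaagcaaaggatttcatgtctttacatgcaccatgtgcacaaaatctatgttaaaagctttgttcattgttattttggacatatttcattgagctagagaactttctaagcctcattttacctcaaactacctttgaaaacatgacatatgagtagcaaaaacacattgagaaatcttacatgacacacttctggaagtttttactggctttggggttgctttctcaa
Marco (chr1:120505025-120505274, minus strand): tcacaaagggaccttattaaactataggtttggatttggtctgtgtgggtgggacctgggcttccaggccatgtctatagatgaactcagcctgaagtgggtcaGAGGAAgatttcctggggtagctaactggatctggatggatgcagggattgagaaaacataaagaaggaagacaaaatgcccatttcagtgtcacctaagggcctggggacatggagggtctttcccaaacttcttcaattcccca
Clec5a (chr6:40585806-40586055, minus strand): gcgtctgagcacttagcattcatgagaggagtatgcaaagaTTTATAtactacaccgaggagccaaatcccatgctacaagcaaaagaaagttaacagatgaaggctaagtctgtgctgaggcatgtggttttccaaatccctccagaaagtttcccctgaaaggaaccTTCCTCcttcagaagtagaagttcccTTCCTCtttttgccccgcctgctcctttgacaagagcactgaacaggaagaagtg

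The table of promoters held 8 of the 10 genes, without Msr1 and Clec4n. In windows from 250 bases before to 50 after the start, GAGGAA was found in 6 of these 8 genes, against 28.3% of 32851 mouse promoters of that length. TATAAA was found in 3 (Clec4e, Clec5a and Clec7a), against 13.6%. Only in Clec4e did it read in the direction of the gene, from -29 to -24. The matches in Clec5a (-209 to -204) and Clec7a (43 to 48, after the start) were on the opposite strand. TTGCNNAA was found in Clec4e only, from position -66 to -59, against 10.8%. The kappaB consensus, TGANTCA (an AP-1 site) and TGACNNNGC (an NRF2 core) were in none of the 8 windows, against 8.46%, 7.81% and 12.4% of all promoters. In Clec4e the C/EBP-type match, a GAGGAA match at -56 and the TATAAA match at -29 follow each other without overlap. A match describes letters and not a bound site.

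In MyD88KO cells, which keep the TRIF branch of TLR4, Clec4e and Clec5a still rose and Cd163 still fell. Clec4e had 44.02, 49.2 and 113 CPM at 0 h, 346, 694 and 835 at 2 h and 398, 753 and 956 at 4 h, without overlap. Its log2 change was 3.19 ± 0.51 and 3.35 ± 0.51 (edgeR adjusted p = 4.6e-05 and 9.5e-06). Clec5a rose from 29.2, 29.7 and 56.8 CPM to 91.1, 129 and 174 at 2 h and 61.2, 107 and 170 at 4 h, by 1.77 ± 0.32 and 1.55 ± 0.32. Both genes therefore moved in the same direction as in wild-type cells at each time. Cd163 fell by 2.23 ± 0.74 at 4 h (adjusted p = 0.020), a call lost without the cohort 1 library at 0 h or the cohort 3 library at 4 h (adjusted p up to 0.092). In all, 2 members were called at 2 h (16.1% of all genes) and 3 at 4 h (34.1%).

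Marco in MyD88KO cells followed the cohort more than the time. Cohorts 1, 2 and 3 had 16.3, 102 and 3.30 CPM at 0 h, 26.2, 147 and 3.17 at 2 h, and 29.2, 166 and 4.16 at 4 h. Within a cohort the 4 h level was 1.79, 1.62 and 1.26 times that at 0 h, while in wild-type cells the same ratio ranged from 4.17 to 66.6 over 6 libraries. The log2 value at 4 h was 0.71 ± 1.04 (adjusted p = 0.64). Msr1, Cd36 and Mrc1 also kept the order cohort 2, cohort 1, cohort 3 at all 3 times, for instance Msr1 with 218, 139 and 59.5 CPM at 0 h and 344, 235 and 107 at 4 h. The summed macrophage markers ranged from 4998 to 11511 CPM over the MyD88KO libraries at 0 h, and their part in this order was not tested.

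Residuals of libraries with the same cohort number were correlated in every MyD88KO pair, so the fit with a replicate block of library set and cohort bears on these cells. This block also ties them to low-set wild-type libraries of the same number. Between genotypes or sets, same-numbered libraries had residual correlations from -0.170 to 0.669. The blocked fit called 3 members at 2 h, with Clec4d added (0.65 ± 0.17), and 5 at 4 h, with Clec4d (0.75 ± 0.17, adjusted p = 0.00076) and Msr1 (0.74 ± 0.24, adjusted p = 0.012) added. Of all 14475 tested genes the same fit called 4118 at 2 h and 7000 at 4 h. With the cohort number alone as block Msr1 missed the threshold (adjusted p = 0.055). Without a block Clec4d stood at 0.64 ± 0.36 and 0.72 ± 0.36 and Msr1 at 0.72 ± 0.50 at 4 h.

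In the libraries labelled TrifKO, Clec4e and Clec5a rose at both times and Marco at 4 h. Marco had 28.96, 29.4 and 33.2 CPM at 0 h, 110, 131 and 139 at 2 h, and 371, 393 and 457 at 4 h, the highest levels of any group. The times did not overlap. In the fit, which takes its error from all groups, the log2 value was 2.05 ± 1.08 at 2 h (adjusted p = 0.19) and 3.74 ± 1.15 at 4 h (adjusted p = 0.016). A fit of the TrifKO libraries of the compared times alone called it at 2 h too (2.04 ± 0.11, adjusted p = 0.00022). The 4 h call was lost without any single TrifKO library at 0 h (adjusted p up to 0.064) and without cohort 3 (3.83 ± 1.49, adjusted p = 0.077).

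Clec4e in these libraries had 118, 154 and 158 CPM at 0 h, 573, 1234 and 1319 at 2 h, and 668, 1283 and 1436 at 4 h, with cohort 3, the cohort with low Ticam1, the lowest at both later times. It rose by 2.86 ± 0.50 and 2.98 ± 0.51 (edgeR adjusted p = 0.00013 and 7.4e-05), and by 3.21 ± 0.61 and 3.30 ± 0.61 without cohort 3. Clec5a went from 39.2, 44.2 and 46.5 CPM to 98.6, 102 and 109 at 2 h and 88.6, 106 and 115 at 4 h, a rise of 1.26 ± 0.32 and 1.25 ± 0.32 (1.28 and 1.37 without cohort 3, both still called). Clec4n in cohort 3 reached 2403 and 2372 CPM at 2 h and 4 h, against 1140 to 1675 in cohorts 1 and 2. In all, 2 members were called at 2 h (20.7% of all genes) and 3 at 4 h (25.9%).

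**Figure D3:**
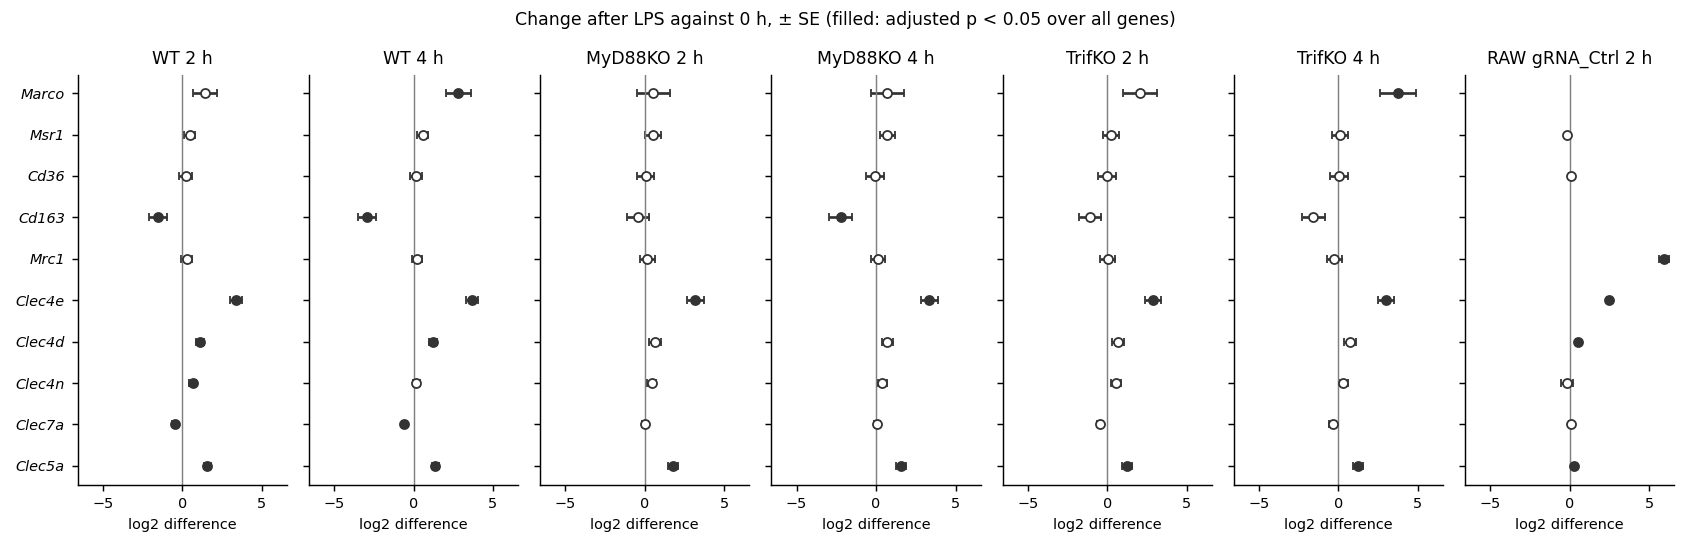
Log2 change after LPS against 0 h with its SE for each gene in wild-type, MyD88KO and TrifKO BMDCs and in RAW264.7 gRNA_Ctrl cells, filled where the adjusted p was under 0.05. Clec4e was called in all 7 comparisons, Clec5a in all 7, and Marco at 4 h in wild-type and TrifKO cells; Marco and Cd163 were not tested in RAW264.7 cells.

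Whether the response itself differed between genotypes was tested as the knockout change minus the wild-type change. Without a replicate block, none of the 10 genes was called by edgeR or by DESeq2 at 2 h (0.442% of all genes for MyD88KO, 1.38% for TrifKO) or at 4 h (6.86% and 18.3%). Only Clec7a in MyD88KO cells at 4 h had an unadjusted p under 0.05, with a difference of 0.66 ± 0.26 (adjusted p = 0.12). Clec7a stayed at 744, 717 and 941 CPM at 2 h and at 633, 830 and 1045 at 4 h in MyD88KO cells, against 675, 753 and 955 at 0 h. Under total-count scaling this difference was called (0.97 ± 0.25, adjusted p = 0.013). The same scaling called Clec7a in TrifKO cells at 4 h too. Of all 14475 tested genes it called 2052 for MyD88KO and 5867 for TrifKO at 4 h. With the replicate block of library set and cohort, 2 members were called for MyD88KO at 4 h, Marco (-2.82 ± 0.80, adjusted p = 0.014) and Clec7a (0.67 ± 0.19, adjusted p = 0.015). For TrifKO at 4 h this block also called 2, Clec4e and Clec4d, both with negative differences. Of all genes it called 2847 for MyD88KO and 4757 for TrifKO at 4 h. Same-numbered TrifKO libraries had residual correlations from -0.264 to 0.739, so the cohort numbers do not clearly pair them. Without cohort 3, the fit without a block called no member for TrifKO at 4 h. Neither the block nor total-count scaling was fitted without cohort 3. Without the block, the difference for Marco at 4 h was -2.11 ± 1.29 in MyD88KO (adjusted p = 0.37) and 0.91 ± 1.27 in TrifKO cells (0.69). That for Clec4e was -0.32 ± 0.58 and -0.69 ± 0.58. Against the wild-type libraries of their own set, these 4 h values were -2.41 ± 1.64 and 1.08 ± 1.52 for Marco and -0.52 ± 0.65 and -0.53 ± 0.68 for Clec4e, none called. The comparisons of both knockouts share the same wild-type libraries.

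At 0 h edgeR and DESeq2 called no member between libraries labelled MyD88KO or TrifKO and wild-type cells. No member had an unadjusted p under 0.05 (0.0622% of all genes called for MyD88KO and 0% for TrifKO). The values farthest from 0 were those of Cd36, at -0.88 ± 0.50 in MyD88KO and 0.71 ± 0.47 in TrifKO cells. Within the matching library set they were -0.35 ± 0.48 and 0.32 ± 0.48. As given above, Ticam1 in the libraries labelled TrifKO at 0 h lay within the wild-type range. Loss of TRIF is therefore not shown for these libraries, and the comparison rests on their labels.

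**Figure D4:**
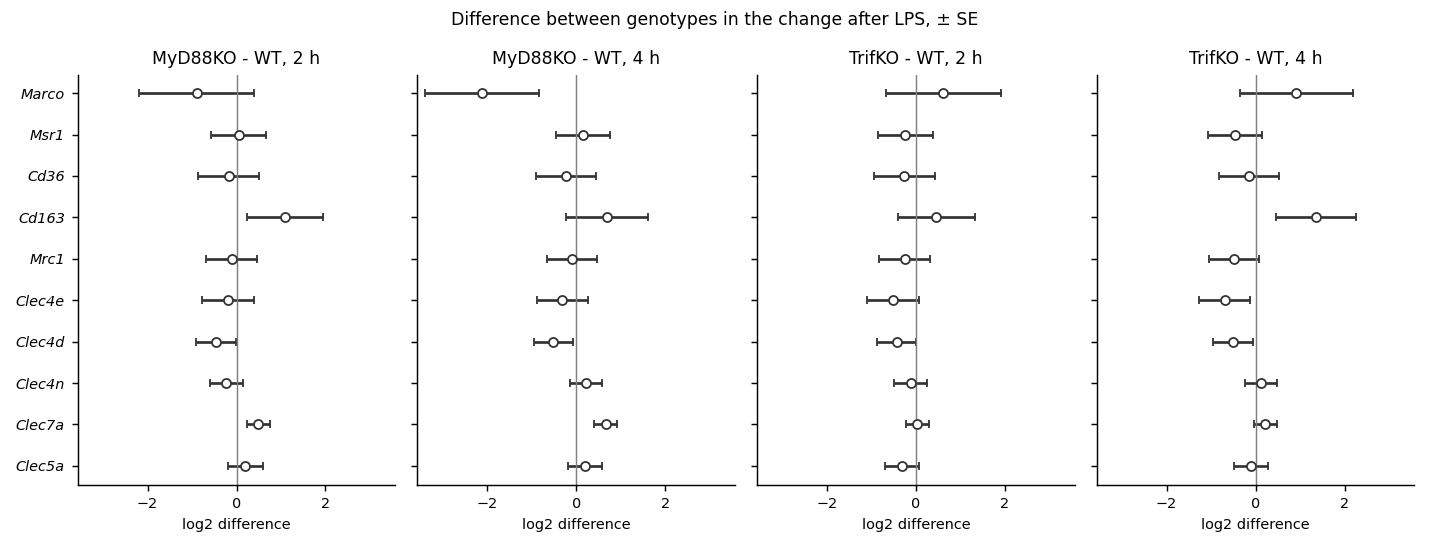
Log2 change after LPS in the knockout minus that in wild-type BMDCs, with its SE, for each gene at 2 h and 4 h. Fitted without a replicate block, no gene passed the adjusted threshold; the point for Marco in MyD88KO cells at 4 h lies at -2.11 with an SE of 1.29, and the points for Clec4e lie within 0.69 of 0.

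Loss of Suv39h1 or Ifnar did not move any member past the threshold in unstimulated BMDCs. None of the 10 was called by edgeR in Suv39h1KO (0.209% of all genes) or IfnarKO cells (0.125%) against wild type, none had an unadjusted p under 0.05, and DESeq2 called none. In the doubly deficient cells none was called by edgeR against IfnarKO (0.222%) or Suv39h1KO cells (0.16%). Cd163 had 1.04, 1.15 and 1.38 CPM there (56 to 118 counts), above all 9 libraries of the other groups, which lay between 0.426 and 0.682. Its log2 value was 1.03 ± 0.26 against IfnarKO (edgeR adjusted p = 0.32) and 1.07 ± 0.26 against Suv39h1KO cells (adjusted p = 0.34). DESeq2 called both (adjusted p = 0.038 and 0.030). With the cohort as a replicate block, which pairs the libraries of this set, the edgeR values were 1.04 ± 0.24 (adjusted p = 0.067) and 1.06 ± 0.24 (0.056).

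Among the other members of the unstimulated set, Marco was again the most variable, with 6.28, 7.92 and 24.001 CPM in wild-type, 10.4, 21.4 and 58.5 in Suv39h1KO, 13.2, 14.1 and 33.6 in IfnarKO and 23.7, 23.9 and 66.4 in doubly deficient cells. The groups overlapped. Clec5a was the steadiest, between 36.8 and 44.4 CPM in all 12 libraries. Clec4d had an unadjusted p under 0.05 against IfnarKO cells, with a log2 value of -0.33 ± 0.14 (adjusted p = 0.81).

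In RAW264.7 cells with the control guide, the 2 h libraries differed from those at 0 h in 4 of the 8 tested members, all higher, against 51.6% of 13078 tested genes. Mrc1, an endocytic receptor gene that did not pass in BMDCs after LPS, rose from near 0. It had 0.193, 0.369 and 0.464 CPM at 0 h (9, 25 and 21 counts) and 15.9, 23.3 and 24.4 CPM at 2 h, a log2 change of 5.94 ± 0.33 (edgeR adjusted p = 1.2e-10). Clec4e went from 179, 180.3 and 195 CPM to 927, 1015 and 1163, by 2.49 ± 0.13 (adjusted p = 3.6e-11). Both genes were without overlap between times.

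Clec4d rose from 206, 210.4 and 224 CPM to 274, 292 and 342, by 0.50 ± 0.11 (edgeR adjusted p = 0.0011). Clec5a, already high, went from 389, 397 and 406 CPM to 442, 493.4 and 525, by 0.29 ± 0.09 (adjusted p = 0.0092). Neither gene overlapped between times. The call of Clec5a was lost under total-count scaling, which lowers log2 changes here by 0.18 (0.11, adjusted p = 0.26), and without the cohort 2 library at 2 h (adjusted p = 0.056). Msr1 (-0.16 ± 0.06, adjusted p = 0.052), Cd36 (0.05), Clec4n (-0.20) and Clec7a (0.08) did not pass; total-count scaling called Msr1 lower (-0.34) and turned Cd36 and Clec7a to negative values.

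With the other guides the called members were Mrc1, Clec4e, Clec4d and Clec5a with gRNA_1 (4 members, 51.3% of all genes) and Mrc1, Clec4e and Clec4d with gRNA_2 (3 members, 50.8%). Clec4e rose by 2.51 ± 0.13 and 2.48 ± 0.13. With gRNA_1 Mrc1 had 2, 0 and 2 counts at 0 h and 8.30, 11.02 and 13.3 CPM at 2 h; the ratio of the summed counts was 461, with a 95% exact counting interval of 179.7 to 1692. With gRNA_2 it went from 0.185, 0.279 and 0.354 CPM to 11.5, 19.8 and 20.4, by 6.05 ± 0.34. Intervals of counts cover counting error only. Under total-count scaling Clec4d lost its call with both guides (0.23, adjusted p = 0.074, and 0.26, adjusted p = 0.051), as did Clec5a with gRNA_1. The same scaling called 2 members lower with each guide, Msr1 (-0.25 and -0.23) and Clec4n (-0.94 and -0.84). Thus 2 were higher and 2 lower in place of 4 and 3 higher. Of all 13078 tested genes this scaling called 7637 with gRNA_1 and 7729 with gRNA_2. The median log2 change over all genes was -0.18 with each. The change from 0 h to 2 h differed from that with gRNA_Ctrl in no member by edgeR or DESeq2 (0.00765% of all genes for gRNA_1 and 0% for gRNA_2), with Mrc1 in gRNA_1 at an unadjusted p under 0.05 (2.77 ± 0.94) and no member for gRNA_2.

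At 0 h, gRNA_2 cells stood above gRNA_Ctrl cells in 4 of 8 members, where 4.53% of all genes were called in either direction. Clec7a had 45.5, 49.9 and 52.1 CPM against 25.6, 26.0 and 32.6, a difference of 0.81 ± 0.11 (edgeR adjusted p = 0.00024). Cd36 had 337, 345 and 372 CPM against 228, 231 and 267, a difference of 0.54 ± 0.10 (adjusted p = 0.0053). Clec4n, at 6.02, 8.81 and 11.03 against 2.61, 3.16 and 4.55 CPM, differed by 1.34 ± 0.36 (adjusted p = 0.042), and Msr1 by 0.24 ± 0.06 (adjusted p = 0.046). No library of 1 group overlapped the other in these 4 genes. The same held for the uncalled Clec4d (233 to 284 against 206 to 224 CPM) and Clec5a (413 to 496 against 389 to 406). The share of all genes without such overlap was not determined, so the lack of overlap does not set these members apart from other genes. The calls of Clec4n and Msr1 were each lost without 4 of the 6 libraries in turn, cohorts 1 and 2 of both groups (adjusted p up to 0.18 and 0.21). Summed macrophage markers were 7227 to 7565 CPM in gRNA_2 and 6225 to 6526 in gRNA_Ctrl cells at 0 h, and their part in these differences was not tested.

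With gRNA_1 a single member was called at 0 h, Mrc1, lower than with gRNA_Ctrl (-3.73 ± 0.86, edgeR adjusted p = 0.025, 2.24% of all genes called). This rests on 4 counts against 55 summed over 3 libraries each, a ratio of 14.4 with a 95% exact counting interval of 5.33 to 54.8. It was lost in 5 of 6 leave-outs, all but that of the gRNA_Ctrl cohort 2 library (adjusted p up to 0.14). With only the compared groups Mrc1 did not pass the filter on low counts, and the single call among 7 tested members was Clec4d, higher with gRNA_1 (0.22 ± 0.05, adjusted p = 0.0497).

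**Figure D5:**
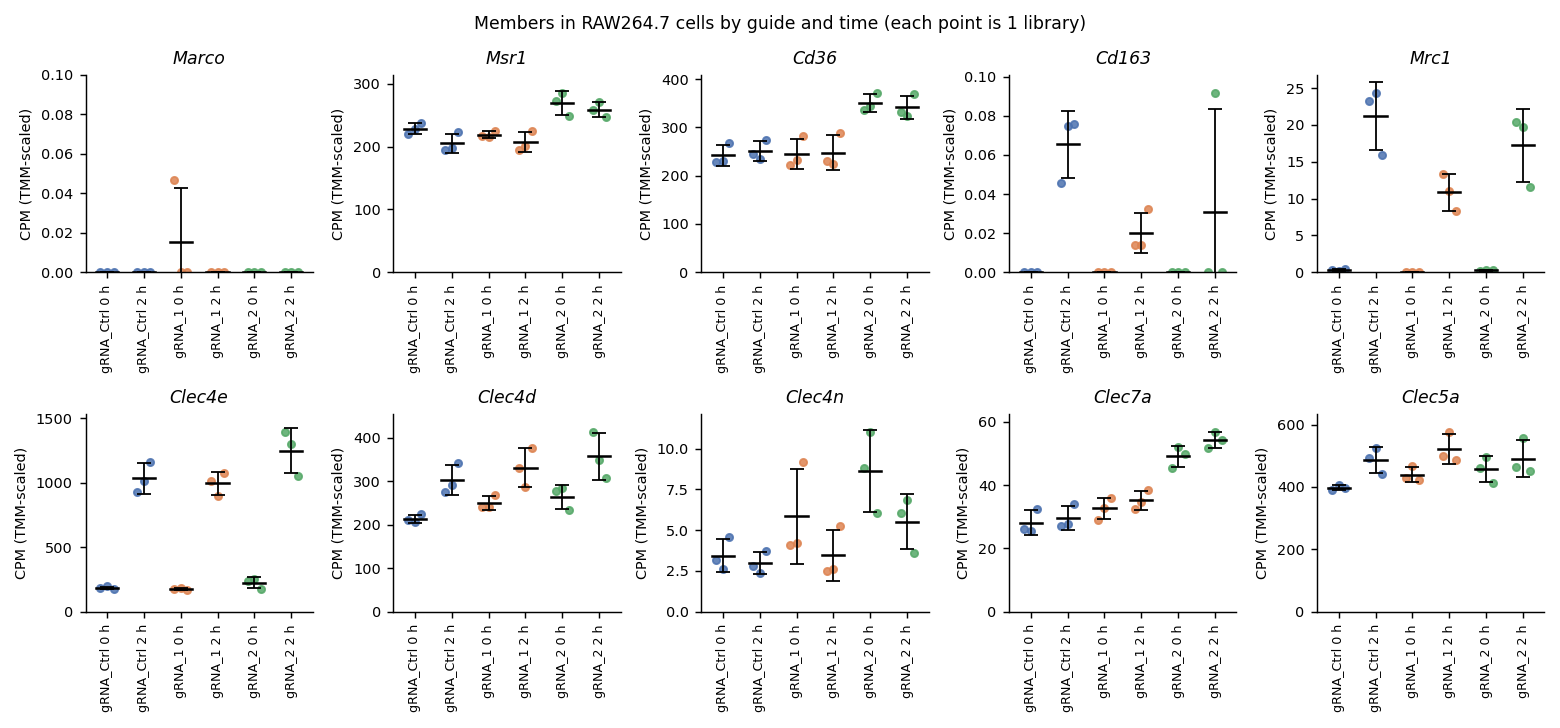
CPM of each gene in every RAW264.7 library by guide and time, with the mean and SD as black bars and linear axes that start at 0. Mrc1 lay below 0.5 CPM in all 9 libraries at 0 h and between 8.30 and 24.4 CPM in all 9 at 2 h, and Clec7a was higher in gRNA_2 cells at both times.

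Other genes of the same families and pathways were counted in the same fits. Of 17 tested other scavenger receptor genes, 5 rose and 4 fell in wild-type BMDCs at 4 h, with a median log2 change of -0.03. The largest were Timd4, a phosphatidylserine receptor gene (4.50 ± 1.19, from 0.0704 to 1.62 CPM), Ssc5d (2.85 ± 0.48) and Scarf1 (2.20 ± 0.38). Of 26 other C-type lectin genes, 7 rose and 9 fell, with a median of -0.25. The early activation marker Cd69 rose by 5.56 ± 0.34, Clec4a1, from the same gene family as Clec4n, rose by 2.93 ± 0.28, and Clec1a fell by 2.19 ± 0.27. The median over all genes was -0.07, and of all genes 30.0% rose and 35.1% fell.

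Of 20 genes of Syk and CARD9 signalling, 10 rose and 6 fell, with a median of 0.24, beside 30.0% of all genes that rose and 35.1% that fell. Malt1, the paracaspase that acts with BCL10 below CARD9, rose by 2.06 ± 0.21 and Src, a tyrosine kinase gene, by 2.05 ± 0.36, while Card9 itself fell by 1.72 ± 0.18, from 68.9 to 20.9 CPM. Of 16 transcription factor genes linked to the members, 9 rose and 5 fell (median 0.53), with the largest changes in Cebpa (-2.52 ± 0.25) and in Pparg (-2.30 ± 0.24), a regulator of Cd36 in macrophages. Of 12 lipid handling genes 2 rose, Fabp3 (4.21 ± 0.51) and Acsl1 (3.10 ± 0.39), and 2 fell, among them Angptl4 (-3.90 ± 0.51), an inhibitor of lipoprotein lipase.

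In gRNA_Ctrl RAW264.7 cells at 2 h, 2 of 12 other scavenger receptors rose and 6 fell, the largest change being Ager (-1.97 ± 0.42). Of 14 other lectins 5 rose and 1 fell, and Cd69 went from 0 counts to a mean of 0.910 CPM. Of 20 Syk and CARD9 genes 10 rose and 6 fell, led by Malt1 (3.52 ± 0.07). Of 14 transcription factors 8 rose and 3 fell, led by Irf4 (4.81 ± 0.23), and of 12 lipid genes 6 rose and 4 fell, led by Fabp4 (3.30 ± 0.30). Of all genes 26.3% rose and 25.3% fell there.

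The genes most like 3 of the members in pattern were sought over the 9 group means of the stimulated BMDC set. Nearest to Clec4e were Rbm27, Sel1l and Optn (Pearson r = 0.99 each), nearest to Marco were Dnmt3l, Trpm4 and Mlx (0.98 each), and nearest to Cd163 were Unc119, Nars2 and Speg (0.99 each). These are descriptions over 9 means that share the same libraries. Among the members themselves, Clec7a ran against Clec4d (r = -0.84) and Marco (-0.80) over the same means.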

How the data were processed

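Gene counts were used as deposited by the authors; per the submitters' processing notes the tools were STAR, HOMER and DESeq2 and the build mm10, with versions and counting settings not given in the sources used here. The labels' protocols name the TruSeq Stranded mRNA kit. A table of repeat copies was not used here. All 65 libraries were grouped by their labels. Each experiment was fitted with edgeR 4.0.16 (R 4.3.3): filterByExpr, TMM scaling, 1 term per group, quasi-likelihood F tests and Benjamini-Hochberg adjustment over all tested genes (14386, 14475 and 13078), with 0.05 as threshold. All 10 members were tested in both BMDC sets and 8 in RAW264.7 cells. SE is the absolute log2 change over the root of F. Scripts were tested on simulated data. CPM per kb used the union of GENCODE M21 exons, and promoters came from RefSeq (GRCm38.p6). If a strand setting was wrong, antisense reads could add to a gene.

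Members and lists were chosen with earlier results of these data known. All members are named; of each list, up to 3 genes with the largest change past the threshold in wild-type cells at 4 h and 1 in gRNA_Ctrl cells are named. Of the genes this rule names, 1 is not reported here. No list test was made. Ly6g was not in the table. Depth was 36.9 M to 95.3 M counts. Of 88 pairs of libraries within groups, none agreed within sampling noise (lowest chi-square per gene 5.08). In high-set wild-type cells this value was 10.5 to 16.9 between cohorts 1 and 2, but 131 to 264 between either and cohort 3. In TrifKO cells at 2 h and 4 h it was 25.7 and 25.6, against 194 to 253. At 0 h the TrifKO libraries differed by 6.53 to 21.1. Libraries of a group may therefore not be equally independent.

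Same-numbered libraries had residual correlations of at least 0.268 in the unstimulated set, 0.484 in MyD88KO cells and 0.315 in wild-type high-set libraries, so there the cohort numbers pair libraries. The lowest was 0.0240 in wild-type low-set, -0.264 in TrifKO and 0.00341 in RAW264.7 libraries. Alternatives were DESeq2 1.42.0, no filter, compared groups only, replicate blocks, leave-one-out, single library sets and, chosen after seeing the data, total-count scaling and leaving out TrifKO cohort 3 or MyD88KO cohort 2.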

Additional observations from a re-analysis of the deposited data

How the results depend on the processing

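Of 3610 values of members under alternatives, 3510 kept their direction and side of the threshold where called, 40 lost a call, 60 gained one and none that was called turned sign; 242 uncalled values changed sign. The count of members called moved as follows; the cause was not tested. In wild-type cells from 2 h to 4 h it was 1 by DESeq2, 1 with only the compared groups, 1 with a replicate block of the cohort number, 4 with a replicate block of library set and cohort, and 3 with total-count scaling, in place of 0. At 2 h against 0 h wild-type libraries of the high set alone gave 3 in place of 6. TrifKO cells gave 5 at 2 h and 5 at 4 h with only the compared groups, 5 at 4 h with the cohort block, and 5 and 5 with the block of set and cohort, in place of 2 and 3, and MyD88KO cells gave 5 at 4 h with that block. Differences of the 4 h response rose from 0 to 2 with the block of set and cohort in both knockouts (Marco -2.82 ± 0.80 and Clec7a 0.67 ± 0.19 in MyD88KO, Clec4e -0.96 ± 0.32 and Clec4d -0.56 ± 0.21 in TrifKO cells) and to 1 with total-count scaling in both (Clec7a, 0.97 and 0.64). DESeq2 called 1 in each comparison of doubly deficient cells, in place of 0. Numbers pair the libraries in the unstimulated set, in MyD88KO cells and in the high wild-type set. Elsewhere pairing by number is less clear. Mean residual correlations of same-numbered libraries were 0.385 in the wild-type low set, 0.129 in TrifKO cells and 0.117 across RAW264.7 guides. Those of other numbers were -0.192, -0.0561 and -0.0580. A replicate block changed no other count of members by over 1.5 times. Leaving out 1 library at a time gave 0 to 1 member from 2 h to 4 h in wild-type cells, 0 to 1 for the MyD88KO difference at 4 h, 2 to 3 and 2 to 4 in MyD88KO cells at 2 h and 4 h, 2 to 4 in TrifKO cells at 4 h, 0 to 1 for gRNA_1 and 2 to 5 for gRNA_2 against gRNA_Ctrl at 0 h, and 3 to 5 in both gRNA_Ctrl and gRNA_1 cells at 2 h. Low counts limit Cd163 in every set and Mrc1 in RAW264.7 cells at 0 h. Counts over all genes moved by over 1.5 times as follows. With the block of set and cohort they went from 2326 to 4118 (MyD88KO 2 h), 2997 to 5067 and 3746 to 5901 (TrifKO 2 h and 4 h), 9 to 19 (MyD88KO at 0 h), 64 to 413 and 993 to 2847 (MyD88KO response difference at 2 h and 4 h) and 200 to 432 and 2647 to 4757 (that of TrifKO). With the cohort block they went from 9 to 16, 64 to 147 and 993 to 1506 (MyD88KO at 0 h and its differences), 30 to 163, 18 to 55, 32 to 192 and 23 to 228 (Suv39h1KO, IfnarKO and both comparisons of doubly deficient cells), 293 to 903 and 592 to 1647 (gRNA_1 and gRNA_2 at 0 h) and 1 to 4 and 0 to 16 (their response differences). DESeq2 gave 43, 199, 120, 47, 131, 82, 557, 957, 7 and 14 for MyD88KO at 0 h, its 2 h difference, Suv39h1KO, IfnarKO, doubly deficient against IfnarKO and Suv39h1KO, gRNA_1 and gRNA_2 at 0 h and their differences. Only the compared groups gave 4512 (TrifKO 2 h), 4, 35 and 659 (MyD88KO at 0 h and its differences), 9 (Suv39h1KO), 20 (doubly deficient against IfnarKO) and 497 (gRNA_1 at 0 h). Low-set wild-type libraries alone gave 3826 at 2 h (6641), 2868 from 2 h to 4 h (5175), and 6 and 134 for the MyD88KO differences. Without TrifKO cohort 3 the counts were 1 (0 h), 116 and 1650, and without MyD88KO cohort 2 they were 3, 10 and 270. Total-count scaling gave 2052 and 5867 for the 4 h differences of MyD88KO and TrifKO and 2 for gRNA_2, and no filter gave 2 and 4 for gRNA_1 and gRNA_2 differences. Leaving out 1 library at a time gave 142 to 258 and 252 to 671 (gRNA_1 and gRNA_2 at 0 h), 0 to 1 and 0 to 3 (their differences), 3 to 9 (MyD88KO at 0 h), 19 to 189 and 585 to 1291 (its differences), 0 to 1 (TrifKO at 0 h), 11 to 20 (Suv39h1KO), 6 to 15 (IfnarKO) and 9 to 23 and 12 to 29 (doubly deficient against IfnarKO and Suv39h1KO); other such counts stayed within 1.5 times.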
